A study of Mus musculus with 6 samples.

Results

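The troponin subunits are the 8 genes Tnnt1, Tnnt2, Tnnt3, Tnni1, Tnni2, Tnni3, Tnnc1 and Tnnc2, taken by their symbols from the gene tables of the series, where they are 8 of 35976 genes. Of these 8 genes, 7 passed the filter on low counts (more than 10 counts in at least 2 libraries), as did 17348 of all genes, and Tnni3 did not. The isoform tables hold 78 transcripts of Tnnt1, Tnnt2 and Tnnt3 among 106521 transcripts in all. The data are RNA-seq libraries of cultured mouse satellite cells (SCs), the muscle stem cells that lie against the fiber, with 3 libraries from NF-YA cKO and 3 from control NF-YA fl/fl mice. NF-YA is the sequence-specific subunit of NF-Y, the factor that binds the CCAAT box. NF-YA cKO mice carry floxed NF-YA alleles and the Pax7-CreERT2 driver, whose Cre is active in Pax7-expressing cells after tamoxifen, and NF-YA fl/fl mice carry the floxed alleles, with no Cre driver named for them. All mice received tamoxifen (5 daily injections, at 6 to 8 weeks of age by the methods and 5 to 7 weeks by the labels). Muscles were taken 7 days later, SCs were enriched by magnetic depletion of endothelial, blood and Sca1-positive cells, and RNA was taken after 4 days in growth medium. The labels do not say whether libraries of a genotype are separate mice, so p-values measure the spread between these samples, which may be technical.

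Troponin is the calcium switch of the thin filament in striated muscle. Troponin C binds calcium, troponin I holds back the interaction of actin with myosin, and troponin T ties the complex to tropomyosin. Slow fibers use Tnnt1, Tnni1 and Tnnc1, fast fibers use Tnnt3, Tnni2 and Tnnc2, and the heart uses Tnnt2 and Tnni3 together with Tnnc1. Cardiac Tnnt2 is also made for a time by differentiating skeletal muscle cells, and the troponin T genes are known for alternative exons that change during development.

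All 7 tested troponin genes were lower in the NF-YA cKO libraries, by 6.61-fold for Tnnt2 to 201-fold for Tnnc2. Of all 17348 genes tested, 7.67% were called lower and 4.65% higher. Slow and fast subunits both fell, and the cardiac troponin T gene fell least. Tnnt2 held 63.5% ± 6.75 of the troponin T signal in NF-YA cKO and 26.4% ± 3.22 in NF-YA fl/fl (SD, n = 3 each). Within Tnnt1, Tnnt2 and Tnnt3 the estimated share of several transcripts also lay apart between the genotypes. How often this occurs over all transcripts of the series was not counted, so it is not known to exceed the background.

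Total expected counts per library ranged from 26936230 to 41118984, so that 3 counts stand for 0.0705 to 0.115 CPM (counts scaled to library size). The Nfya gene itself had 27.0, 28.5 and 27.0 CPM in NF-YA cKO and 23.4, 25.7 and 36.9 CPM in the controls. The transcript entry for the deleted allele had 189, 312 and 393 expected counts in NF-YA cKO and 0 in each NF-YA fl/fl library, while entries of the undeleted allele still had counts in NF-YA cKO. The methods describe male mice, yet Xist was at 836 to 852 CPM in NF-YA cKO and at most 0.475 in NF-YA fl/fl, and the Y-linked Ddx3y was at most 0.0957 CPM in NF-YA cKO and at least 80.9 in NF-YA fl/fl. By these transcripts the NF-YA cKO libraries read as female and the NF-YA fl/fl libraries as male. Every result below therefore carries this apparent difference in sex as well as the genotype, and the parts of each cannot be told apart. NF-YA fl/fl replicate 3 stood apart from the other two of its genotype, with 1146 CPM of Myod1 against 361 and 295 and 21.6 CPM of Pdgfra against 132 and 147. Satellite cell markers were present in all libraries (summed CPM 839 to 946 in NF-YA cKO and 946 to 1456 in NF-YA fl/fl, 2 of 9 tested lower and 0 higher, median log2 fold change 0.80), with Calcr at 3 counts or fewer in every library. The 2 called lower were Cdh15 (-1.78, FDR = 0.000272) and Spry1 (-1.80, FDR = 0.00258). Pax7 (0.94, FDR = 0.00624), Sdc4 (0.80, FDR = 0.00446) and Vcam1 (0.86, FDR = 0.0101) were not called. For these, each NF-YA cKO library was above each control, as for 29.1% of all genes tested. Itga7 (-1.25, FDR = 0.0116) was not called either, with each NF-YA cKO library below each control, as for 26.2% of all genes. The 8 tested markers of differentiated muscle were all lower (summed CPM 898 to 1727 against 43431 to 52255). Macrophage markers, whose cells the depletion should remove, were higher for 7 of 9 (142 to 276 CPM summed against 5.94 to 16.0), as were 4 of 7 Schwann cell markers (88.2 to 102 against 48.4 to 84.9). Of the other lists, 1 of 10 fibro-adipogenic markers was higher (2066 to 2487 CPM summed against 1153 to 3128). Among 8 endothelial markers 2 were higher and 1 lower (21.9 to 27.8 against 13.6 to 15.9). Of 9 tested pericyte and smooth muscle markers 3 were lower and 6 not called (1589 to 1889 against 3438 to 4231). The 3 were Abcc9, Acta2 and Des, and Des is also in the differentiated muscle list. Much of this sum came from Acta2 and Des (means of 1616 and 1392 CPM in NF-YA fl/fl). The part of these cell types in the troponin differences was not tested.

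The genes lie at 5 places in the genome (GRCm38, mm10). Tnni1 (chromosome 1, 135779434 to 135810989) and Tnnt2 (chromosome 1, 135836354 to 135852260) are 25364 bp apart on the plus strand. Tnni2 (chromosome 7, 142441808 to 142444410) and Tnnt3 (chromosome 7, 142498836 to 142516009) are 54425 bp apart on the plus strand. Tnnt1 (chromosome 7, 4504570 to 4516382) and Tnni3 (chromosome 7, 4518305 to 4524229) are 1922 bp apart on the minus strand. Tnnc1 (chromosome 14, 31208312 to 31211729, plus strand) and Tnnc2 (chromosome 2, 164777161 to 164779967, minus strand) stand alone.

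Promoter sequence (RefSeq, GRCm38.p6) was at hand for 6 of the 8 genes in 8 windows of 300 bases, 250 before and 50 after a start site. Since NF-Y binds CCAAT, the windows were searched on both strands for CCAAT and for the general TATA box TATAAA. The search also covered letters of muscle regulators, namely the E-box CANNTG of the MyoD family, the M-CAT element CATTCC of TEAD factors, and the MEF2 site. CCAAT was in 2 of the 8 windows, against 37.4% of all 32841 windows in the table. An E-box was in 8 of 8 (72.3% of all windows), M-CAT in 2 (14.7%), TATAAA in 1 (13.6%) and the MEF2 site in 0 (3.19%). Shown are the 250 bases before the start site, 5′ to 3′, for the windows that hold CCAAT or M-CAT, with CCAAT (or ATTGG, its opposite strand), E-boxes and M-CAT in capitals.
Tnnc2, chr2:164779735-164779984, minus strand: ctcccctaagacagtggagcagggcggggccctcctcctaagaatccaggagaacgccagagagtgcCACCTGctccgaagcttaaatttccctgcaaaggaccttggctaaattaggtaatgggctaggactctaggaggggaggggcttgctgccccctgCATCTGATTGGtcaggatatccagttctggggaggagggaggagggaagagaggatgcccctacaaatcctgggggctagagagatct
Tnnt2, downstream start site, chr1:135836739-135836988, plus strand: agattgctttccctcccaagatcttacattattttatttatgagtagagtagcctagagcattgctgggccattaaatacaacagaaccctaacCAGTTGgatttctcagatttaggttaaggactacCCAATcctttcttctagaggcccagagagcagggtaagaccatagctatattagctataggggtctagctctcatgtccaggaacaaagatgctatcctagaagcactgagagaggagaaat
Tnnt2, upstream start site, chr1:135836084-135836333, plus strand: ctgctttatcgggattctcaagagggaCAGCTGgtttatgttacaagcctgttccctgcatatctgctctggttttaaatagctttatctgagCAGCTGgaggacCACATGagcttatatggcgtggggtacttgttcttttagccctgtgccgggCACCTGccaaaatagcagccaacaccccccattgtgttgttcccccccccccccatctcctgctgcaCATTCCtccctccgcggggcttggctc
Tnnc1, chr14:31208062-31208311, plus strand: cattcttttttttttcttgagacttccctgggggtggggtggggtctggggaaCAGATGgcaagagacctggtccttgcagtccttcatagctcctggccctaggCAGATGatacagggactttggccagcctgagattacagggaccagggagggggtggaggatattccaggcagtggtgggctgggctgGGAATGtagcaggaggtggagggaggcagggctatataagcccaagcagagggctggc
Tnnc2, the gene with the largest fall, had ATTGG at position -82 directly after an E-box, with the start site counted as 0. The downstream start site of Tnnt2, the gene with the smallest fall, had CCAAT at -122, while its upstream start site had M-CAT at -27 and 5 E-boxes in its window. Tnnc1 had M-CAT on the opposite strand at -58. A match of letters is no evidence of binding. The windows of Tnnc1, Tnnt1, Tnni1 and Tnni3 and the upstream window of Tnnt2 held no CCAAT.

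Troponin C is the calcium-binding subunit. Slow and cardiac Tnnc1 was at 2.39, 2.94 and 4.65 CPM in the 3 NF-YA cKO libraries and 589, 352 and 441 CPM in the 3 controls. The genotypes did not overlap, and the highest NF-YA cKO library was far below the lowest control. Its log2 fold change (NF-YA cKO minus NF-YA fl/fl) was -7.10 ± 0.35 (SE), a 137-fold difference (FDR = 6.52e-05, edgeR quasi-likelihood test over all 17348 genes with Benjamini-Hochberg adjustment, as for all FDR values here). Fewer cells that make a transcript and less of it per cell cannot be told apart in these bulk libraries. Fast Tnnc2 was at 0.67, 0.869 and 1.62 CPM in NF-YA cKO, from 21, 36 and 69 counts, against 304, 204 and 141 CPM in the controls. It had the largest fall of the family, with a log2 fold change of -7.65 ± 0.46 (SE, FDR = 0.00013) and again no overlap.

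Troponin I is the inhibitory subunit. Slow Tnni1 was at 12.02, 8.83 and 12.9 CPM in NF-YA cKO against 903, 535 and 584 CPM in the controls. This was a log2 fold change of -5.90 ± 0.29 (SE, FDR = 6.16e-05), and all NF-YA cKO libraries lay below all controls. Fast Tnni2 had 30, 91 and 166 counts in NF-YA cKO (0.957, 2.2 and 3.9 CPM) and 1854, 1535 and 1191 in the controls (70.9, 45.6 and 40.4 CPM). The genotypes did not overlap. The NF-YA cKO libraries spread widely, with replicate 1 lowest and replicate 3 highest. The log2 fold change was -4.45 ± 0.50 (SE, FDR = 0.00115). Without NF-YA cKO replicate 2 it was -4.44 with FDR = 0.0112, above the threshold of 0.01, the only such loss among the 16 alternative fits of the 7 genes. Cardiac Tnni3 was near the floor in both genotypes, with 0, 5 and 10 counts in NF-YA cKO and 4, 7 and 4 in NF-YA fl/fl. A count of 0 in NF-YA cKO replicate 1 allows up to 3 counts, or 0.0957 CPM. The genotypes overlapped (exact permutation test of CPM, two-sided, p = 0.6, smallest possible 0.1), and at this depth no difference could be detected.

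Troponin T is the subunit that binds tropomyosin. Slow Tnnt1 was at 6.79, 11.4 and 17.5 CPM in NF-YA cKO against 375, 259 and 222 CPM in the controls, with no overlap. Its log2 fold change was -4.58 ± 0.40 (SE, FDR = 0.000466). Fast Tnnt3 was at 6.86, 11.4 and 15.8 CPM in NF-YA cKO against 562, 435 and 272 CPM in the controls. Every NF-YA cKO library was again below every control, by a log2 fold change of -5.21 ± 0.42 (SE, FDR = 0.00036). Cardiac Tnnt2 was at 34.7, 49.3 and 49.0 CPM in NF-YA cKO against 411, 237 and 231 CPM in the controls. It fell in the same direction without overlap, but by less, with a log2 fold change of -2.72 ± 0.27 (SE, FDR = 0.000783).

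In all, 7 of 7 tested troponin genes were called lower (FDR under 0.01 and a log2 fold change beyond 1), with a median log2 fold change of -5.21. Over all genes tested the median was -0.02. The 3 NF-YA cKO libraries were all below the 3 controls for 7 of 7 genes, and this was so for 26.2% of all genes, while 29.1% lay the other way. NF-YA fl/fl replicate 1 was highest for all 7, and NF-YA fl/fl replicate 3 was lowest for 5. NF-YA cKO replicate 1 was lowest for 6 and replicate 3 highest for 6. Without NF-YA fl/fl replicate 3, the library that stood apart, all 7 were still called, with log2 fold changes from -7.87 (Tnnc2) to -2.87 (Tnnt2).

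**Figure D1:**
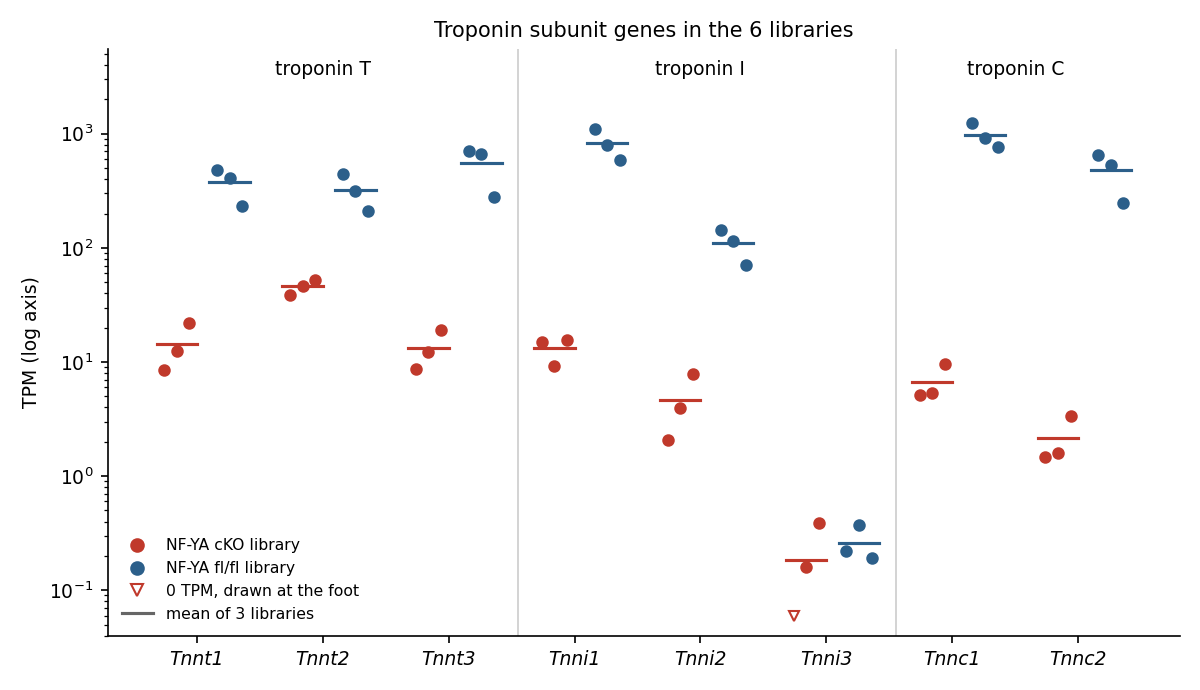
TPM of the 8 troponin genes (log axis) in 3 NF-YA cKO libraries (red) and 3 NF-YA fl/fl libraries (blue), in replicate order from left to right, with the mean as a line. For 7 genes every red point lies below every blue point, Tnnt2 has the highest red points (38.7 to 52.5 TPM), and Tnni3 lies below 1 TPM in all libraries.

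Levels of different genes were compared by TPM, which is scaled by transcript length. The 8 genes together held 79.5, 91.7 and 130.3 TPM in NF-YA cKO and 4797, 3756 and 2387 TPM in NF-YA fl/fl. In NF-YA fl/fl the order by mean TPM was Tnnc1 (972 ± 250), Tnni1 (833 ± 261.1), Tnnt3 (550.0 ± 236), Tnnc2 (480.1 ± 211), Tnnt1 (376 ± 129), Tnnt2 (325 ± 120.0), Tnni2 (110.1 ± 37.3) and Tnni3 (0.26 ± 0.0964; SD, n = 3 each). The ranges of neighbors among the first 6 genes overlapped across libraries, Tnni2 lay below those 6, and Tnni3 lay below all others. Within each NF-YA fl/fl library the order of the genes was the same. The order in NF-YA cKO was Tnnt2 (45.9 ± 6.92), Tnnt1 (14.3 ± 6.86), Tnnt3 (13.3 ± 5.36), Tnni1 (13.2 ± 3.41), Tnnc1 (6.68 ± 2.47), Tnni2 (4.64 ± 2.98), Tnnc2 (2.15 ± 1.07) and Tnni3 (0.183 ± 0.196). Tnnt2 lay above all others in each NF-YA cKO library, the ranges of neighbors from Tnnt1 to Tnnc2 overlapped across libraries, and Tnni3 lay below. Within each NF-YA cKO library Tnnt1, Tnnt3 and Tnni1, whose order varied, were above Tnnc1, followed by Tnni2 and then Tnnc2. Tnnt2 was thus in place 6 of 8 in NF-YA fl/fl and in place 1 in NF-YA cKO, and Tnnc1 went from place 1 to place 5.

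Slow, fast and cardiac genes were then set against each other within each family, as percent of the family's summed TPM. For troponin T, Tnnt2 held 69.1, 65.4 and 56.1% in NF-YA cKO and 27.4, 22.8 and 29.0% in NF-YA fl/fl. The genotypes lay apart, by 37.2 percentage points (p = 0.1 in a two-sided exact permutation test, where 3 against 3 libraries cannot give less, so that no share can pass 0.05). With any 1 library left out the difference was 34.4 to 40.9 points. Fast Tnnt3 made up 15.5, 17.0 and 20.5% in NF-YA cKO against 43.1, 47.8 and 38.6%, -25.5 points and without overlap. Slow Tnnt1 made up 15.4, 17.5 and 23.4% against 29.6, 29.4 and 32.4%, -11.7 points and without overlap. On the log2 scale the ratio of Tnnt2 to Tnnt1 was 1.99 higher in NF-YA cKO and that of Tnnt2 to Tnnt3 2.56 higher, each without overlap (exact permutation p = 0.1). The ratio of slow Tnnt1 to fast Tnnt3 was 0.991, 1.03 and 1.14 in NF-YA cKO and 0.687, 0.615 and 0.839 in NF-YA fl/fl, which lay apart by 0.57 on the log2 scale (exact permutation p = 0.1).

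The shares of slow and fast troponin I and C overlapped between the genotypes. Slow Tnni1 held 87.9, 69.4 and 65.1% of troponin I in NF-YA cKO and 88.5, 87.3 and 89.3% in NF-YA fl/fl. NF-YA cKO replicate 1 lay among the controls, so that the genotypes overlapped (exact permutation test, two-sided, p = 0.2). Tnni3 stayed at or under 1.64% of troponin I in every library. Slow and cardiac Tnnc1 held 77.8, 76.9 and 73.8% of troponin C in NF-YA cKO and 65.5, 62.9 and 75.5% in NF-YA fl/fl. Here NF-YA fl/fl replicate 3 lay among the NF-YA cKO libraries (p = 0.2 by the same exact test). The shift of Tnnc1 was 8.24 points with all libraries. With any 1 library left out it was 5.70 to 11.99 points, the largest being without that replicate.

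**Figure D2:**
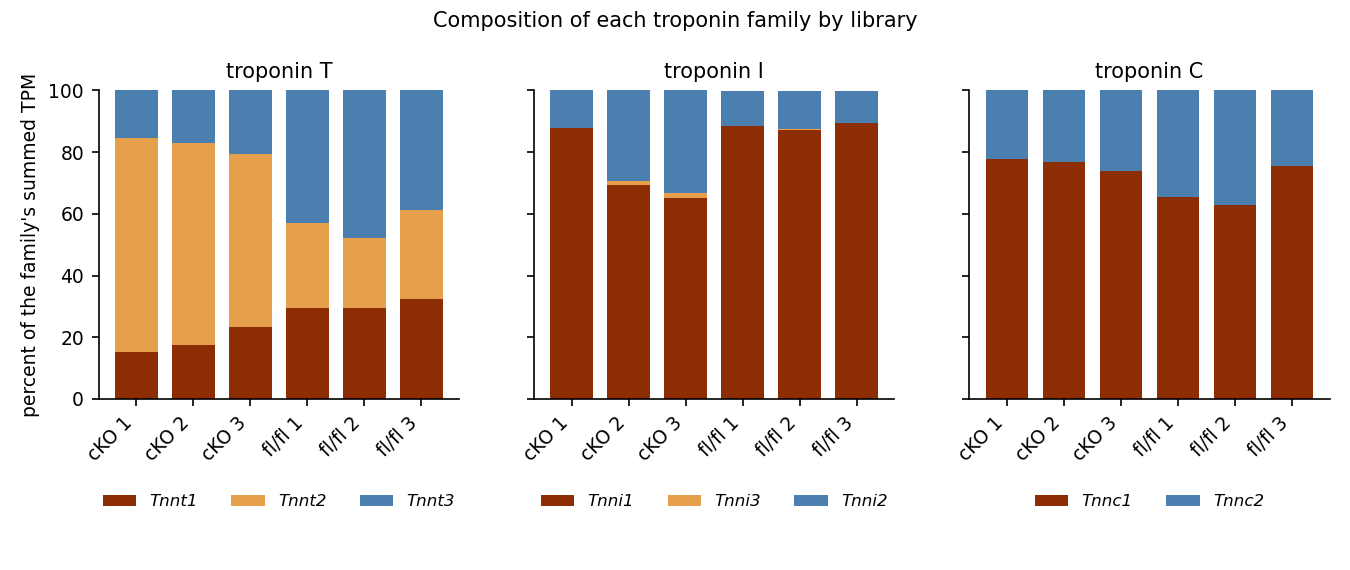
Percent of the summed TPM of troponin T, I and C held by each gene in each library, with slow genes in brown, cardiac genes in orange and fast genes in blue (Tnnc1 serves slow and cardiac muscle). The orange part of troponin T is 56.1 to 69.1% in the NF-YA cKO bars and 22.8 to 29.0% in the NF-YA fl/fl bars, while the bars of troponin I and C overlap between genotypes.

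Transcripts of the troponin T genes differ by short exons that change the protein's acidic N-terminal part or its C-terminal part. RSEM divides reads among transcripts that share exons, so the values below are estimates. Exon content was read from GENCODE M21 for the RefSeq transcripts that it pairs with an entry of their own, 3 of 10 for Tnnt1 and 8 of 50 for Tnnt3, whose lengths in the deposited tables exceed the coding length by the same amount throughout (244 nt in Tnnt1 and 264 nt in Tnnt3). For Tnnt2 up to 3 RefSeq transcripts share an entry and this excess varies from 218 to 326 nt, so its exon content, like the structure of the other transcripts, was not analysed here. Shown are coding exons that differ among those transcripts, in capitals, with 12 bases of the neighboring exons in lower case, in the sense of the transcript, because the transcripts named below are told apart by them.
Tnnt1, 33-nt exon, chr7:4513581-4513613, minus strand: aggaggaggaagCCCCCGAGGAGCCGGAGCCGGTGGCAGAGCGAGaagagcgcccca
Tnnt1, 22-nt form of the next exon, chr7:4512265-4512286, minus strand: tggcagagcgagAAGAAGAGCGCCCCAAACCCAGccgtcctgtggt
Tnnt1, 19-nt form of the next exon, chr7:4512265-4512283, minus strand: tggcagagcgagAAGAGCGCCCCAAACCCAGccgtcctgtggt
Tnnt3, 15-nt exon, chr7:142504250-142504264, plus strand: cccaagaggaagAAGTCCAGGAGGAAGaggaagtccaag
Tnnt3, 39-nt exon, chr7:142507750-142507788, plus strand: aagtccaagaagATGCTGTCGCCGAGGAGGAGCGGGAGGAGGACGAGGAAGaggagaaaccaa
Tnnt3, first 41-nt exon, chr7:142513665-142513705, plus strand: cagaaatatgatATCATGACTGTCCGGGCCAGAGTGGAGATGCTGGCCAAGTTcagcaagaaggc
Tnnt3, second 41-nt exon, chr7:142514326-142514366, plus strand: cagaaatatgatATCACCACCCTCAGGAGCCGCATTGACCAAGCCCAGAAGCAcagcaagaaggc
The last pair is used one or the other, and their 41 bases are identical at 18 positions. The 22-nt and 19-nt forms in Tnnt1 differ by an AAG at their 5′ end.

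Of 38 tested Tnnt transcripts (10 of Tnnt1, 10 of Tnnt2 and 18 of Tnnt3) all had a log2 fold change below 0 and 5 were called lower, against 1.01% of all 45367 transcripts tested, of which 0.39% were called higher. No Tnnt transcript was called higher. The transcript fit is weak at this size: no Tnnt transcript was called when any 1 library but NF-YA fl/fl replicate 3 was left out and 1 was called without that one, while DESeq2 called 28. In simulated data with known changes the same fit recovered 22.7% of changed transcripts. By size this was 1.59% for log2 changes of 2, 25.7% for 3 and 42.1% for 6, in either direction. The simulation did not copy the division of reads among transcripts that share exons. Transcripts named below held a mean of at least 5% of their gene in either genotype, so some were named only through 1 genotype. Among all transcripts, shares higher and lower in NF-YA cKO without overlap were 4 and 2 of 10 (Tnnt1), 2 and 5 of 18 (Tnnt2) and 3 and 4 of 50 (Tnnt3). The same count over all transcripts of the series was not made.

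For Tnnt1 the transcript NM_001277903.1, with the 33-nt exon and the 22-nt form, held 17.6, 20.2 and 17.3% of the gene in NF-YA cKO and 40.0, 33.2 and 25.2% in NF-YA fl/fl. NM_011618.2, with the 33-nt exon and the 19-nt form, held 23.8, 18.4 and 20.1% against 32.9, 37.1 and 29.0%. NM_001277904.1, without the 33-nt exon, held 19.8, 23.9 and 30.3% against 12.7, 12.9 and 18.4%. The first pair had a lower share in every NF-YA cKO library and the last a higher share (exact permutation test, two-sided, p = 0.1 for each). XM_006539726.3 was also apart, at 18.6% ± 3.18 in NF-YA cKO and 10.2% ± 3.64 in NF-YA fl/fl (SD, n = 3), as were XM_017322113.1 (5.59% ± 1.93 and 1.91% ± 0.954) and XM_017322114.1 (5.93% ± 3.02 and 1.73% ± 0.462). Counted over the 3 paired transcripts, the 33-nt exon was in 68.6, 62.7 and 56.3% of counts in NF-YA cKO and 85.7, 85.0 and 75.4% in NF-YA fl/fl, with no overlap. These transcripts held 57.5 to 65.4% of the gene's counts in NF-YA cKO and 70.5 to 84.1% in NF-YA fl/fl. In level, NM_001277903.1 (-5.46 ± 0.57), NM_011618.2 (-5.28 ± 0.45) and XM_017322114.1 (-2.98 ± 0.32) were called lower (log2 fold change ± SE, edgeR FDR = 0.00798, 0.00502 and 0.00826). NM_001277904.1 (-3.68), XM_006539726.3 (-3.58) and XM_017322113.1 (-2.89) were not called, because their FDR was above 0.01 (edgeR FDR = 0.0175, 0.0124 and 0.03).

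In Tnnt2 a single transcript, NM_011619.3, held 93.7, 93.2 and 91.8% in NF-YA cKO and 71.9, 73.2 and 79.9% in NF-YA fl/fl. It fell by 2.37 ± 0.27 on the log2 scale (SE, edgeR FDR = 0.00952). NM_001130178.2 held 0, 0 and 2.36% in NF-YA cKO against 11.0, 10.9 and 7.94%, and NM_001130174.2 was at 0 counts in all NF-YA cKO libraries against 836, 468 and 265 expected counts (7.54, 5.67 and 3.76%). No library of one genotype overlapped the other for these 3 transcripts (exact permutation test, two-sided, p = 0.1 for each).

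For Tnnt3 the leading transcript NM_001163666.1, with the 39-nt exon and without the 15-nt exon, held 28.1, 29.9 and 24.4% in NF-YA cKO and 40.3, 38.8 and 51.7% in NF-YA fl/fl. It fell by 5.84 ± 0.37 on the log2 scale (SE, edgeR FDR = 0.00293). NM_001163667.1, with both exons, held 8.7, 0 and 4.66% against 21.8, 17.4 and 15.2%. XM_006508585.1 held 30.7, 28.7 and 20.0% in NF-YA cKO and 1.53, 3.13 and 3.27% in NF-YA fl/fl, and XM_006508595.1 held 16.2, 13.0 and 16.6% against 0.41, 0.89 and 1.82%. Their counts were few, with 67.0, 136.2 and 136.4 expected counts of XM_006508585.1 in NF-YA cKO and 230, 466 and 265 in the controls. In level neither passed the test (log2 fold change -1.85 ± 0.32 and -1.06 ± 0.49, SE, edgeR FDR = 0.0245 and 0.258). XM_006508592.1 was lower in share (5.01% ± 4.34 against 10.8% ± 2.68), and NM_001163668.1 overlapped (1.04% ± 1.81 against 5.28% ± 2.01; SD, n = 3). Apart from NM_001163668.1 (exact permutation p = 0.2), the named Tnnt3 transcripts did not overlap in share (exact permutation p = 0.1 for each). Naming by the genotype with the higher share favors such a gap, so it is no separate support. Over paired transcripts the 39-nt exon was in 67.9 to 100% of counts in NF-YA cKO and 81.6 to 90.2% in NF-YA fl/fl, which overlapped, as did the 15-nt exon (9.79 to 35.5% against 28.2 to 43.5%). Among paired transcripts the first 41-nt exon, known from adult muscle, had 0 counts in all 6 libraries, so that all paired counts were of the second one, known from embryonic and newborn muscle. The paired transcripts held only 36.2 to 42.1% of Tnnt3 counts in NF-YA cKO and 72.0 to 78.5% in NF-YA fl/fl.

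**Figure D3:**
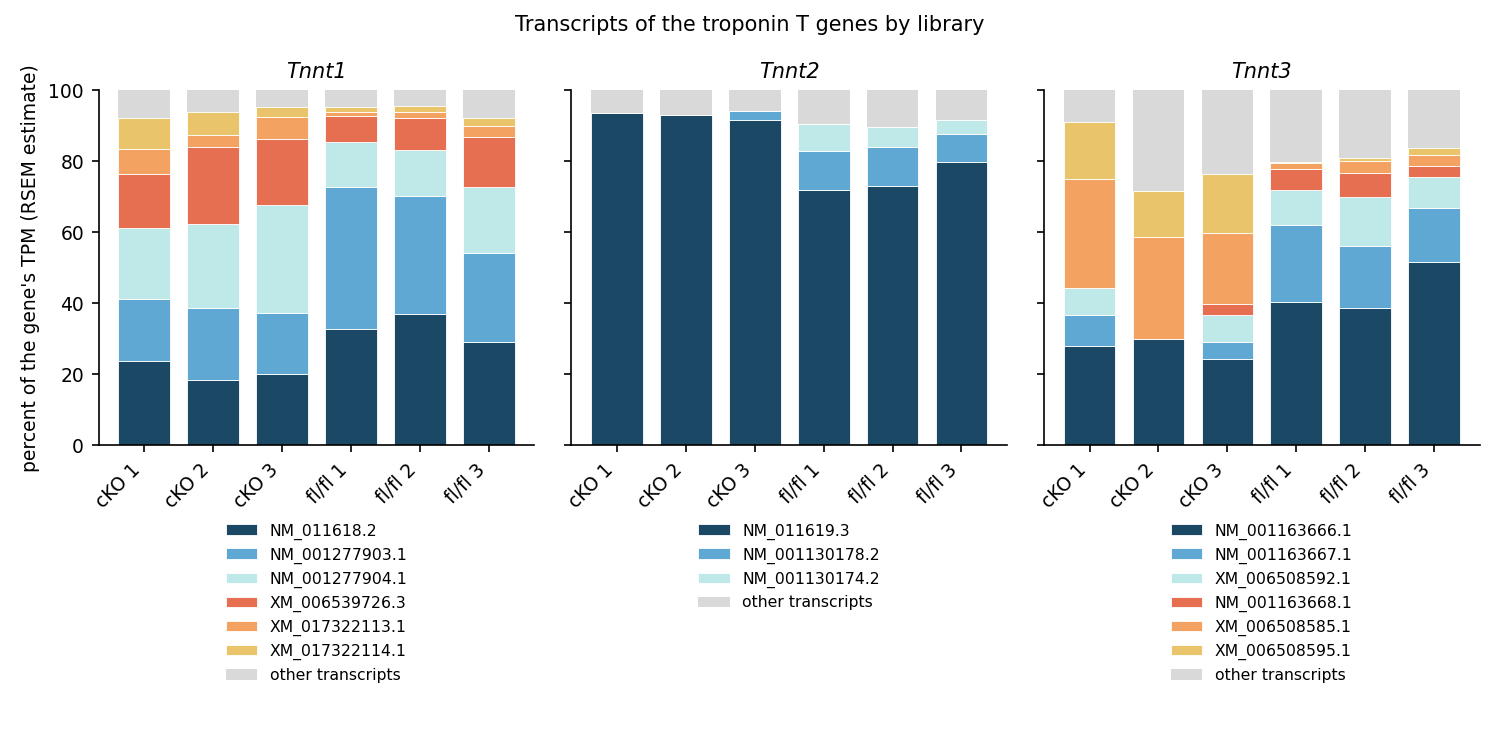
Percent of the TPM of Tnnt1, Tnnt2 and Tnnt3 that RSEM gave to each transcript in each library, for transcripts with a mean of at least 5% in either genotype, with all others in grey. NM_011619.3 fills 91.8 to 93.7% of the Tnnt2 bars in NF-YA cKO and 71.9 to 79.9% in NF-YA fl/fl, and XM_006508585.1 fills 20.0 to 30.7% of the Tnnt3 bars in NF-YA cKO and 1.53 to 3.27% in NF-YA fl/fl.

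The genes around the troponin genes were read from the same fit, to see whether their neighborhoods moved with them. Of 16 nearest or overlapping genes 14 were tested, 2 were called lower, 2 higher and 10 neither. Lad1, which lies between Tnni1 and Tnnt2, had 2.22 ± 0.543 CPM in NF-YA cKO and 1.48 ± 0.443 in NF-YA fl/fl (SD, n = 3), with a log2 fold change of 0.59 (FDR = 0.168). Lsp1, which lies between Tnni2 and Tnnt3, had 53.7 ± 9.51 and 97.8 ± 10.4 CPM, and its log2 fold change of -0.86 did not pass the size threshold (FDR = 0.00541). Syt8, 1411 bp from Tnni2, was lower (-2.30 ± 0.42, SE, FDR = 0.00649), and so was Prr33, which overlaps Tnnt3 on the other strand (-2.62 ± 0.36, SE, FDR = 0.00228). Ppp1r12c beside Tnnt1 had a log2 fold change of 0.04 (FDR = 0.75). Ube2c, a ubiquitin-conjugating enzyme of mitosis that overlaps Tnnc2 by 1662 bp on the other strand, was higher (1.29 ± 0.20, SE, FDR = 0.00375), as was Stab1, 39670 bp from Tnnc1 (1.60 ± 0.32, SE, FDR = 0.00885). Nisch overlaps Tnnc1 over 3418 bp on the other strand and was at 328 ± 2.9 and 591 ± 135 CPM, below the size threshold (-0.85, FDR = 0.00745). The libraries were made with a strand-specific protocol, but whether the counting used strand is not given in the sources used here, so a share of the reads in these overlaps may belong to either gene. Tnni3 also overlaps Dnaaf3 on its own strand.

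Partners of troponin on the thin filament were unequal. Of 16 tested genes 9 were lower and 0 higher, with a median log2 fold change of -1.88. The sarcomeric actins Actc1 (-8.06 ± 0.46) and Acta1 (-6.71 ± 0.41) and the actin nucleator Lmod3 (-7.04 ± 0.29; SE, FDR = 9.99e-05, 0.000139 and 5.06e-05) fell most. The gene totals of tropomyosin, on which troponin T sits, did not all fall. Transcript forms of the Tpm genes were not examined, so these totals do not show which forms changed. Tpm2 was lower (238 ± 4.7 against 839 ± 136 CPM, log2 fold change -1.82, FDR = 0.000288), whereas Tpm1 was at 1125 ± 76.1 and 1046 ± 128 CPM (0.11, FDR = 0.546), and Tpm3 (0.65) and Tpm4 (0.54) were not called. 

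Genes that release and store the calcium to which troponin responds were lower for 14 of 16, with a median of -5.10. The largest were the triad protein Trdn (-8.47 ± 0.40), the voltage sensor Cacna1s (-8.34 ± 0.43) and the calcium buffer Casq1 (-8.22 ± 0.48; SE, FDR = 5.79e-05, 7.16e-05 and 0.00011). Atp2a2, the slow and cardiac calcium pump, was not called (-0.39, FDR = 0.0584). Of the slow fiber list, which also holds Atp2a2, 4 of 7 tested genes were lower (median -6.68), led by the slow myosin Myh7 (-8.54 ± 0.58), Casq2 (-7.75 ± 0.42) and myoglobin, Mb (-7.59 ± 0.60; SE, FDR = 0.000206, 8.73e-05 and 0.000347). Of 11 fast fiber genes 10 were lower (median -6.36). They were led by the fast myosin Myh1 (-8.81 ± 0.41), Casq1 (-8.22 ± 0.48) and the light chain Myl1 (-7.91 ± 0.35; SE, FDR = 5.72e-05, 0.00011 and 5.72e-05). Of 7 embryonic and cardiac sarcomere genes 5 were lower (median -7.32), led by the perinatal and embryonic myosins Myh8 (-8.96 ± 0.38) and Myh3 (-8.09 ± 0.55; SE, FDR = 5.06e-05 and 0.00019) and by Actc1. The atrial light chain Myl7 was called higher (1.78 ± 1.22 against 0.0623 ± 0.0803 CPM, log2 fold change 4.87, FDR = 0.00945), a call that was lost without any 1 of the 6 libraries. Cardiac muscle markers were low, with summed CPM of 19.9 to 28.3 in NF-YA cKO and 9.53 to 20.7 in NF-YA fl/fl, 1 of 7 tested lower and 1 higher, and Nkx2-5 at 3 counts or fewer in every library.

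Listed regulators of muscle genes, of splicing and of sarcomere proteins moved in part. Of 11 tested muscle gene activators 5 were lower and 0 higher (median -1.17). Myog was at 10.7, 18.7 and 31.4 CPM in NF-YA cKO against 965, 584 and 1450.4 CPM in the controls, and its log2 fold change was -5.62 ± 0.54 (SE, FDR = 0.000683), without overlap. Mef2c (-5.05 ± 0.21) and Mef2a (-1.82 ± 0.21; SE, FDR = 5.06e-05 and 0.00119) were lower too, while Myod1 was at 509, 627 and 565 CPM against 361, 295 and 1146 CPM and was not called (-0.08, FDR = 0.908). Its overlap came from NF-YA fl/fl replicate 3 alone. Without that library the log2 fold change of Myod1 was 0.78 ± 0.13 (SE, FDR = 0.00305, short of the size threshold) and Myf5 was called higher (1.71 ± 0.23, SE, FDR = 0.00145). Of 14 fiber type regulators 6 were lower and 0 higher (median -0.96), among them Prox1 (-3.14 ± 0.40), Tead4 (-2.79 ± 0.23) and Tbx15 (-2.68 ± 0.23; SE, FDR = 0.0017, 0.00039 and 0.000433). This count was 3 without NF-YA cKO replicate 2. Of 14 listed splicing regulators 3 were lower and 0 higher (median -0.45), namely the SR protein kinase Srpk3 (-4.80 ± 0.21), Rbfox2 (-1.68 ± 0.24) and Rbm20 (-1.41 ± 0.24; SE, FDR = 5.7e-05, 0.00264 and 0.00507). Whether each acts on troponin T was not tested. The count of splicing regulators called lower was 1 without any 1 of the 3 NF-YA cKO libraries, and DESeq2 called 6 lower and 1 higher. The polypyrimidine tract protein Ptbp1, a splicing repressor, was at 351 ± 12.5 against 181 ± 29.0 CPM (0.95, FDR = 0.00234), just short of the size threshold, and Mbnl1 had a log2 fold change of -0.02. Of 10 troponin kinases and sarcomere ubiquitin ligases 4 were lower and 0 higher (median -0.79), 3 of them the ligases Trim63 (-6.03 ± 0.38), Trim55 (-3.76 ± 0.28) and Trim54 (-3.72 ± 0.35; SE, FDR = 0.000155, 0.000292 and 0.000599).

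**Figure D4:**
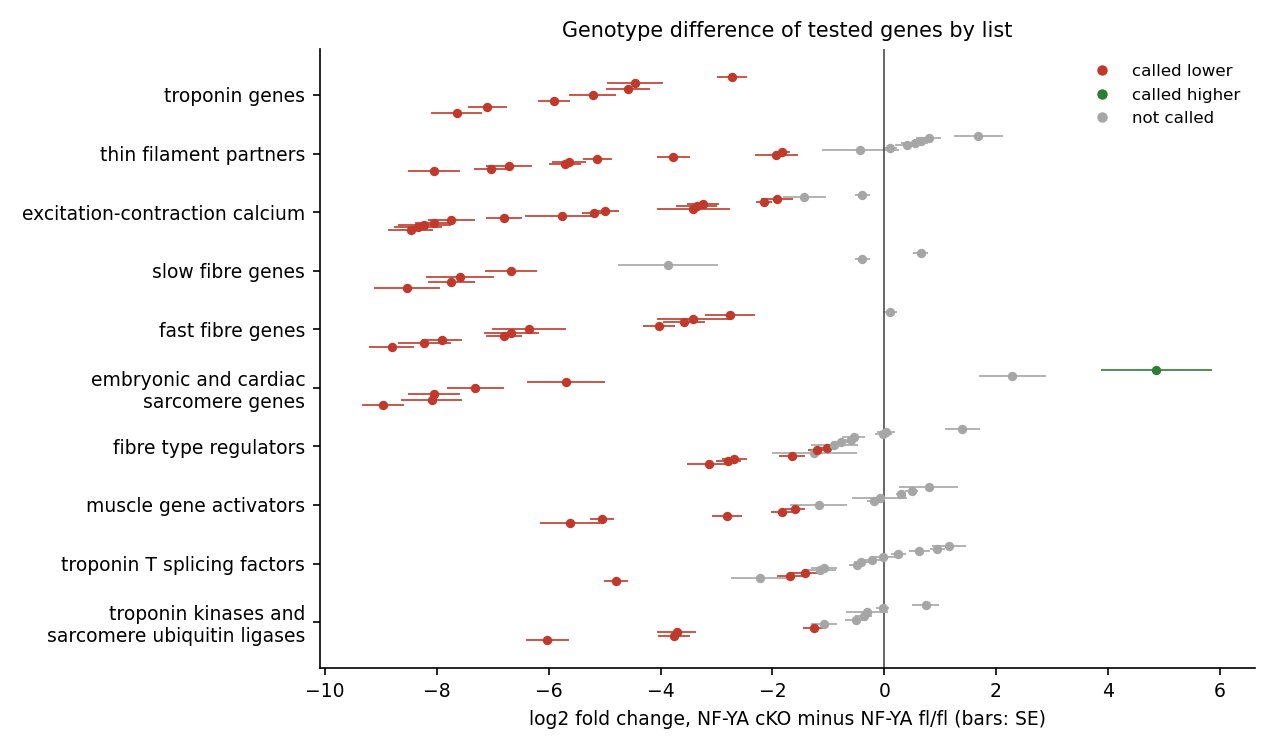
Log2 fold change (NF-YA cKO minus NF-YA fl/fl) with its SE for the 7 tested troponin genes and the tested genes of 9 lists, 1 point per gene, red where called lower, green where called higher and grey where not called. The troponin genes lie between -7.65 and -2.72, all calcium genes lie left of 0, and the splicing factors spread around it (median -0.45).

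The genes whose pattern over the 6 libraries was most like each troponin gene were found by the root mean square difference of log2 CPM, after centring each gene on its own mean, among 9450 genes whose mean reached 10 CPM. With genotype differences this large, the distance mainly follows the difference in log2 fold change between 2 genes. It is therefore no separate evidence of a shared pattern. For Tnnc1 they were Lmod3 (0.0972), Myom2 (0.126) and Col25a1 (0.189), and for Tnnc2 they were Tcap (0.164), Mb (0.184) and Myl1 (0.231). Tnnt1 and Tnni2 shared their nearest genes, Murc (0.0812 and 0.231), Klhl40 (0.118 and 0.259) and Pgm5 (0.18 and 0.263). Tnni1 was closest to Gprc5c (0.142), Gm7325 (0.163) and Txlnb (0.189), and Tnnt3 to Pdlim3 (0.2), Pgam2 (0.226) and Nrap (0.253). Tnnt2 was closest to Tbx15 (0.123), LOC108167732 (0.175) and Pfkm (0.186). Within the family the closest pair was slow Tnnt1 with fast Tnni2 (0.182), next Tnnt1 with Tnnt3 (0.325) and Tnnc1 with Tnnc2 (0.376), whereas Tnnt2 was at least 1.01 from every other troponin gene. The neighboring genes Tnni1 and Tnnt2 were 1.62 apart and Tnni2 and Tnnt3 0.409.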

How the data were processed

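RNA was measured by paired-end RNA-seq (75 nt) of 6 libraries. The authors made the deposited expected counts, TPM values and percentages of a gene's TPM per transcript with RSEM 1.3.1 and Bowtie2 against mm10 from stranded libraries (Bowtie2's version and the strand setting are not given in the sources used here). RSEM divides reads among overlapping transcripts, so transcript values are estimates. Expected counts were rounded, kept where over 10 in at least 2 libraries, scaled by TMM and tested with the quasi-likelihood test of edgeR 4.0.16 in R 4.3.3, over all genes and over all transcripts. A call needed a Benjamini-Hochberg FDR under 0.01 and a log2 fold change over 1 or under -1. The SE is the log2 fold change divided by the square root of F. Shares of TPM were compared by two-sided exact permutation tests. On simulated counts with known changes the fit recovered 186 of 200 changed genes and called 1 of 16782 unchanged ones, and recovered 44 of 194 transcripts. Limits from counts of 0 or 3 cover counting error only.

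The troponin genes and all gene lists were chosen with earlier results of these data known. From each list the 3 called genes with the largest log2 fold change and a mean of at least 10 CPM were named, together with any called the other way. Tpm1, Tpm2, Tpm3, Tpm4, Atp2a2, Myod1, Myf5, Pax7, Sdc4, Vcam1, Itga7, Ptbp1 and Mbnl1 were added after their values were seen. Transcripts with a mean of at least 5% of their gene in either genotype were named. Positions are from GENCODE M21 (GRCm38) and promoters from RefSeq (GRCm38.p6), without windows for Tnnt3 and Tnni2. The alternatives used DESeq2 1.42.0, edgeR with size factors from DESeq2, other filters, unrounded counts, limma 3.58.1 on log2(TPM + 1) and log2(TPM + 0.1), other thresholds, a replicate block and leaving out each library.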

Additional observations from a re-analysis of the deposited data

How the results depend on the processing

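The 7 tested troponin genes were called lower in 16 of 16 alternative fits, except Tnni2 without NF-YA cKO replicate 2 (log2 fold change -4.44, FDR 0.0112), so the number called was 6 to 7. Their log2 fold changes ranged from -8.14 to -7.19 for Tnnc2 and from -2.87 to -2.41 for Tnnt2. The differences in share of 6 troponin genes within their families and of 15 named Tnnt transcripts kept their direction in the 7 alternatives run for shares, which were expected counts in place of TPM and leaving out each library. Exon shares were computed in 1 way only. Counts over all genes moved more. Genes called lower (1331) were 704 by limma on log2(TPM + 1), 2025 at FDR under 0.05, 510 when tested against a log2 fold change of 1, and from 523 up to 1684 with 1 library left out. Genes called higher (806) were 231 by limma on log2(TPM + 1), 361 on log2(TPM + 0.1), 97 when tested against a log2 fold change of 1, and 177 to 890 when a library was left out. Transcripts called lower (456) and higher (177) were 2828 and 1526 by DESeq2, and 0 to 123 and 1 to 42 when a library was left out. The 5 Tnnt transcripts called lower were 28 by DESeq2, 3 with no filter and 0 to 1 when a library was left out. Of the lists, DESeq2 called 1 thin filament gene, 1 fiber type regulator and 1 splicing factor higher and 6 splicing factors lower, and limma on log2(TPM + 1) called 5 splicing factors lower and 0 embryonic and cardiac genes higher. When a library was left out, thin filament genes, fiber type regulators, muscle gene activators and troponin kinases and ligases called higher were 0 to 1, splicing factors 1 to 4 lower and 0 to 2 higher, fiber type regulators 3 to 6 lower, and embryonic and cardiac genes higher 0. The cause of these changes was not tested.

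With the replicate number as a block, all 7 troponin genes were called lower, 947 genes were lower and 625 higher, and 0 transcripts were called lower and 0 higher, those of the Tnnt genes included. Deviations of same-numbered libraries correlated at 0.165, -0.069 and 0.053, so the numbers were not taken to pair them. With 3 libraries a genotype no exact test of a share can go below p = 0.1, and transcripts with few counts in NF-YA cKO limit what can be said of troponin T splicing.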
